A study of Mus musculus with 16 samples.

Results

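The effect of losing KAT7 was described in mouse neural cells that had been differentiating for 3 days. The comparison set the 4 null differentiating libraries against the 4 intact differentiating libraries, 8 of the 16 libraries of the series, chosen by their labels alone. The null genotype was Kat7lox/lox, with both alleles floxed, and the intact genotype was Kat7+/+, with both alleles wild type. Every foetus of either genotype also carried the NesCreT/+ transgene, which places Cre under Nestin sequences, so that Cre was shared by both genotypes. Neural stem and progenitor cells were taken from cortices and ganglionic eminences at E14.5 (embryonic days), grown as neurospheres for 3 passages, then dissociated and plated in cortical neuron medium on dishes coated with laminin. Polyadenylated RNA was sequenced as 75-base paired reads. The remaining 8 libraries were of proliferating neurospheres of the same genotypes. The design names 4 foetuses a genotype, and which proliferating and differentiating libraries came from 1 foetus was not stated. Deletion by this Cre reaches Nestin-expressing cells, and the sources used here do not say how many cells of a culture had lost the gene.

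KAT7, also called HBO1, is a lysine acetyltransferase of the MYST family. It works in complexes with a BRPF or JADE scaffold, an ING reader and MEAF6, acetylates histones H3 and H4, and is known for marking gene promoters and for a role at replication origins. Neural stem cells of this stage give rise to neurons, astrocytes and oligodendrocytes, and withdrawal of mitogens on an adhesive substrate lets all of these lineages form in culture.

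The 8 libraries held 23.9 to 47.9 M counts, and the 16 libraries 16.8 to 47.9 M. Levels are in CPM, counts per M counts of a library after scaling by the trimmed mean of M values (TMM). On the first principal component of the 8 libraries, which held 80.8% of the variance of log2 CPM, null libraries scored -77.6 to -71.5. Intact replicates 1 to 4 scored 106, 67.3, 78.2 and 46.9. Intact replicate 1 lay apart and intact replicate 4 lay nearest the null libraries. Component 2 (9.11%) placed these intact libraries at opposite ends, at 49.6 and -48.5. Pearson's r between replicates was 0.988 to 0.993 in null and 0.948 to 0.990 in intact cells. The median SD of a gene over replicates was 0.122 log2 units in null cells and 0.211 in intact cells, or 0.130 without intact replicate 1. Of all 15177 genes tested, 40.4% had their highest intact level in replicate 1, and of the genes called lower in null cells 61.8% did. Counts of list members called in differentiating cells are therefore given with and without this library for most lists. Values of single genes are also given without it where leaving it out moved them by more than 1.5-fold.

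Kat7 checks the labels. The gene (chromosome 11, 95271853 to 95310246 in GRCm38) had 0, 1, 0 and 0 counts in the null libraries, and its level was 107, 101, 103 and 100 CPM in intact replicates 1 to 4. The groups did not overlap, and the log2 fold change was -13.13 ± 0.31 (SE, edgeR quasi-likelihood test, Benjamini-Hochberg adjusted p = 3.3e-13). Other values in brackets after a gene are likewise log2 fold changes of null against intact cells ± SE, from the same fit, and CPM values with ± are means ± SD of 4 libraries, null first. Coordinates are those of GRCm38. With 1 count the null level was 0.006798% (0.000172 to 0.0379%) of the intact level (95% counting interval, which covers counting error only). The ± 0.31 of Kat7 comes from the test statistic and understates this counting error. That 1 count was in null replicate 2, and without this library Kat7 was at least 3783-fold lower, taking 3 counts over the remaining null libraries as the floor.

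Across all genes, the null differentiating cells had lower levels of most genes in the lists of neurotransmitter receptors, presynaptic proteins and myelin, and higher levels of most genes in the lists of astrocytes, DNA replication and mitosis. A gene was called at an adjusted p under 0.05. Of 15177 genes, 3691 (24.3%) were called higher and 3345 (22.0%) lower in null cells, 46.4% in all. By more than 2-fold, 980 (6.46%) were higher and 1851 (12.2%) lower. Without intact replicate 1, 3578 (23.6%) were higher and 3144 (20.7%) lower, and 1008 (6.64%) and 1643 (10.8%) by more than 2-fold. Of the genes called higher with all libraries 3228 were called higher again (87.5% of the first and 90.2% of the second list), and of those called lower 2906 (86.9% and 92.4%). Under scaling by library size alone 2677 genes were higher and 4123 lower (39.4% of called genes higher, against 52.5% under TMM), and the median log2 fold change of all genes moved from 0.04 to -0.05. Null and intact libraries did not overlap for 6876 genes (45.3%). Libraries are compared relative to all other genes, and in RNA of a whole culture fewer cells of a type and less RNA per cell cannot be told apart.

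**Figure D1:**
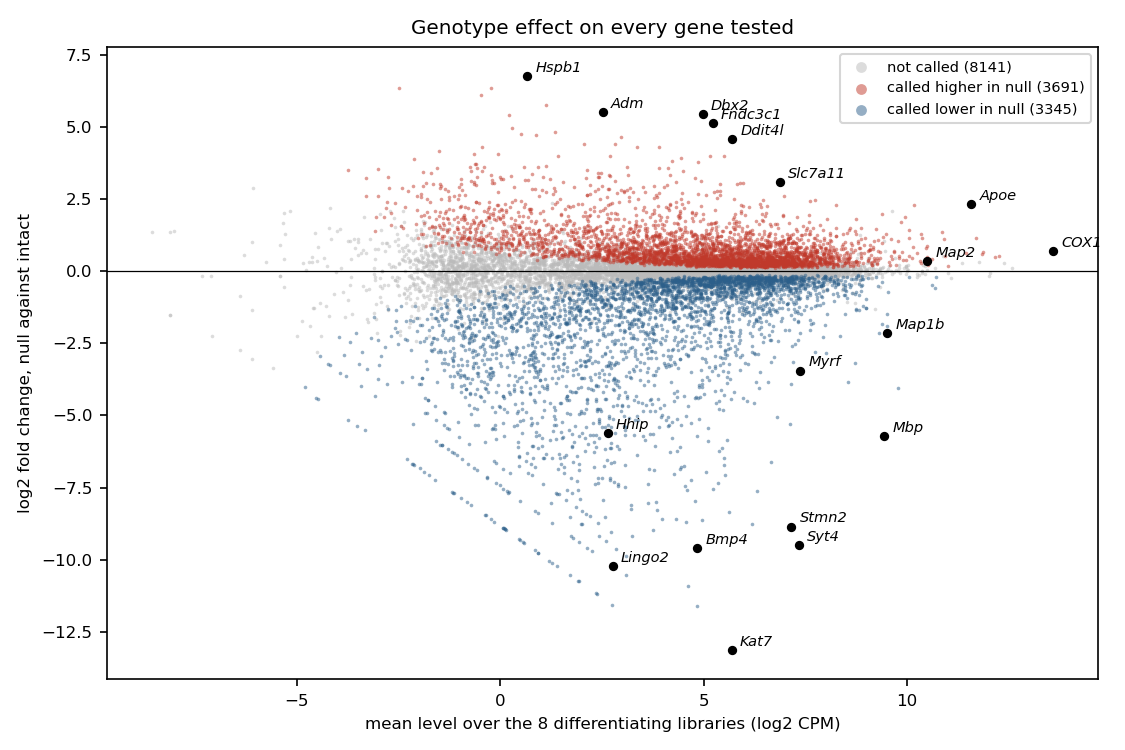
Log2 fold change (null against intact differentiating cells, y axis) against the mean level over the 8 libraries (log2 CPM, x axis) for the genes tested, red where called higher, blue where called lower and grey where not called. Named genes are in black; falls reach further from 0 than rises, with 1851 genes lower and 980 higher by more than 2-fold, and 2 genes without counts in these libraries are not drawn.

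The fold changes of 38 gene lists were compared with these backgrounds. Each list is given by how many of its tested members were called in each direction, and 7 lists of markers of other cell types are given apart from these. Among the 38 lists, the largest negative medians were those of the GABA and glycine receptors (-5.94) and the myelin genes (-3.35), and the largest positive median was that of the astrocyte genes (1.41).

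**Figure D2:**
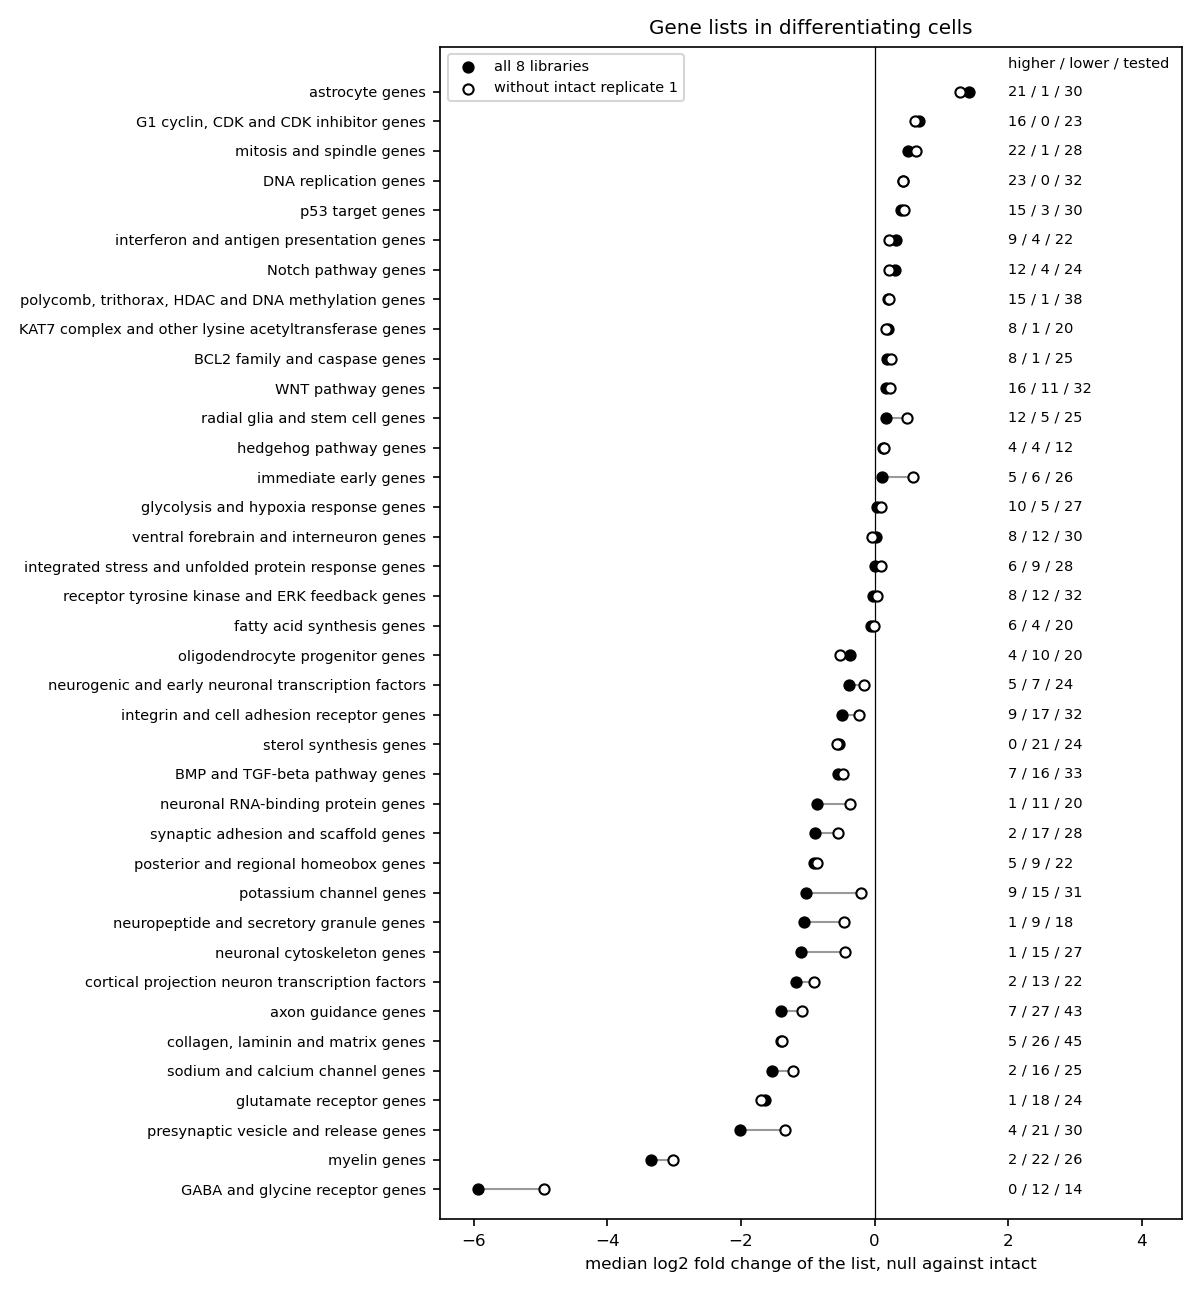
Median log2 fold change (x axis) of each of 38 gene lists with all 8 libraries (filled) and without intact replicate 1 (open), and at the right the number of members called higher, called lower and tested. Most neuronal medians lay nearer 0 without intact replicate 1 (glutamate receptor genes, at -1.64 and -1.70, did not), for example -2.02 and -1.34 for presynaptic genes, and those of sterol synthesis (-0.53 and -0.57) and DNA replication genes (0.43 and 0.42) moved little.

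Transcription factors of neurogenesis had shares of calls near those of all genes (24.3% higher and 22.0% lower). Of 24 neurogenic and early neuronal factors 5 were higher and 7 lower (5 and 8 without intact replicate 1; median -0.39). Hes6 (0.86 ± 0.08), Insm1 (0.98 ± 0.18) and Sox4 (0.52 ± 0.11), factors of committed neuronal progenitors and newborn neurons, rose, Sox4 by less than 1.5-fold. Bhlhe22, a bHLH factor of young cortical neurons, was at 0.105, 0.123, 0.6601 and 0.319 CPM in the null libraries and 411, 92.96, 55.5 and 26.9 CPM in the intact libraries. Even the lowest intact library, replicate 4, lay far above the highest null library. Bhlhe22 fell by 8.77 on the log2 scale (edgeR adjusted p = 4.8e-06; -7.45 without intact replicate 1 and -9.58 without null replicate 3). Myt1l, a zinc finger protein of neuronal identity, was at 3.49, 5.02, 7.99 and 5.74 CPM in the null libraries and 309, 63.9, 81.8 and 19.9 CPM in the intact libraries (-4.40 ± 0.81, edgeR adjusted p = 4.2e-04; -3.30 without intact replicate 1). Neurod2 fell by 4.43 on the log2 scale (-3.45 without that library).

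Cortical projection neuron factors were mostly lower. Of 22 such factors 13 were lower and 2 higher (median -1.18; 14 and 3 without intact replicate 1). Mef2c, a factor of maturing neurons, was at 7.11, 10.2, 11.7 and 20.4 CPM in the null libraries and 482, 92.1, 104 and 35.4 CPM in the intact libraries (-3.85 ± 0.62, edgeR adjusted p = 1.4e-04; -2.64 without intact replicate 1). The deep-layer factors Tbr1 and Fezf2 and the dorsal factor Emx1 changed by -6.86, -5.77 and -6.88 on the log2 scale (-5.95, -4.76 and -5.88 without intact replicate 1; Emx1 -8.23 without null replicate 3). Rorb, a factor of layer 4 neurons that glia also express, was 1 of the 2 higher members (51.2 ± 3.16 against 22.4 ± 3.195 CPM, mean ± SD, n = 4; 1.19 ± 0.11). Pou3f2, shared by progenitors and neurons, was not called (60.3 ± 2.63 against 56.7 ± 6.401 CPM).

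Ventral forebrain genes had no common direction. Of 30 members 8 were higher and 12 lower (10 and 13 without intact replicate 1), with a median of 0.02. Gad1, the GABA synthesis enzyme, was at 116, 101, 78.8 and 85.1 CPM in the null libraries and 62.05, 24.8, 50.7 and 10.97 CPM in the intact libraries. Every null library was above every intact library, yet the rise of 1.36 ± 0.42 (edgeR adjusted p = 0.017) was no longer called without intact replicate 2 (1.21, edgeR adjusted p = 0.050). Reln, a secreted protein of Cajal-Retzius cells and interneurons, was at 2.79, 4.53, 5.86 and 3.54 CPM in the null libraries and 64.2, 23.5, 94.5 and 7.19 CPM in the intact libraries (-3.49 ± 0.77, edgeR adjusted p = 0.0017). Its 4 intact libraries spanned a wide range but lay above all null libraries. Sst, Cck and Calb1, markers of interneuron classes, had few or no counts in null cells. Sst had no counts in 4 null libraries and was at least 460-fold lower, taking 3 counts over the group as the floor (at least 282-fold without intact replicate 3). Cck had 1 null count, 0.315% (0.00794 to 1.77%) of the intact level (0.692% without intact replicate 1, and at least 71.04-fold lower without null replicate 3, which held the count), and Calb1, a calcium-binding protein, was at 0.132 ± 0.106 against 6.63 ± 7.88 CPM (-5.65 ± 0.89, -4.36 without intact replicate 1). Among regional regulators Sp8 fell (-1.52 ± 0.40, with overlap) and Prox1, a homeobox factor of caudal interneurons and also of progenitors, rose (0.96 ± 0.14). Nr2f1 was at 112 ± 11.8 against 210 ± 14.9 CPM, a fall of 0.91 on the log2 scale.

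Cytoskeletal and RNA-binding genes of neurons were lower in part. Of 27 neuronal cytoskeleton genes 15 were lower and 1 higher (15 and 2 without intact replicate 1). Stmn2, a tubulin-binding protein of growing axons (chromosome 3, 8509527 to 8561604), was at 0.314, 0.4596, 0.852 and 0.725 CPM in the null libraries and 736, 148, 211 and 41.7 CPM in the intact libraries. The intact libraries differed widely among themselves, and all lay far above the null libraries (-8.85 ± 1.18, edgeR adjusted p = 2.8e-05; -7.76 without intact replicate 1). Map1b, a microtubule protein of young axons and among the 8 largest falls in CPM of all genes, was at 206, 166, 337 and 356 CPM in the null libraries and 2320, 819, 1086 and 534 CPM in the intact libraries (-2.16 ± 0.41, edgeR adjusted p = 6.1e-04). Gap43, of growth cones, fell by 1.51 and Kif5a, an axonal kinesin, by 2.38 on the log2 scale (-0.85 and -1.70 without intact replicate 1), and libraries overlapped for Gap43. Map2, a dendritic microtubule protein, did not follow. It was at 1747, 1724, 1488 and 1451 CPM in the null libraries and 1264, 1269, 1271 and 1284 CPM in the intact libraries, and every null library was above the narrow intact range. The rise of 0.33 ± 0.09 was under 1.5-fold (edgeR adjusted p = 0.0059). Tubb2b, an abundant tubulin of immature neurons and progenitors, fell by 0.57 (1330 ± 109 against 1977 ± 484 CPM).

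Among 20 neuronal RNA-binding protein genes 11 were lower and 1 higher (11 and 2 without intact replicate 1). Rbfox1, a splicing factor of mature neurons, had 3 counts in the 4 null libraries and 130, 28.6, 30.4 and 7.13 CPM in the intact libraries, so that the null level was 0.0402% (0.00828 to 0.117%) of the intact level (0.101% without intact replicate 1 and 0.0177% without null replicate 4). Celf5 was at 8.23, 7.23, 6.05 and 6.73 CPM in the null libraries and 231, 54.4, 71.6 and 17.3 CPM in the intact libraries (-3.73 ± 0.56, edgeR adjusted p = 8.6e-05; -2.76 without intact replicate 1). The groups did not overlap for either gene. Khdrbs3 fell by 1.73 ± 0.12 with an edgeR adjusted p = 9.4e-08 (43.2 ± 1.603 against 143 ± 27.1 CPM). Elavl3, a pan-neuronal member of the Hu family, fell by 1.05. Elavl4, of the same family, was at 111 ± 24.8 against 80.9 ± 37.97 CPM, not called with all libraries (0.45 ± 0.26, edgeR adjusted p = 0.17) and called higher without intact replicate 1 (0.83, edgeR adjusted p = 0.004). The progenitor RNA-binding protein gene Msi2 was the called higher member (0.44 ± 0.08).

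**Figure D3:**
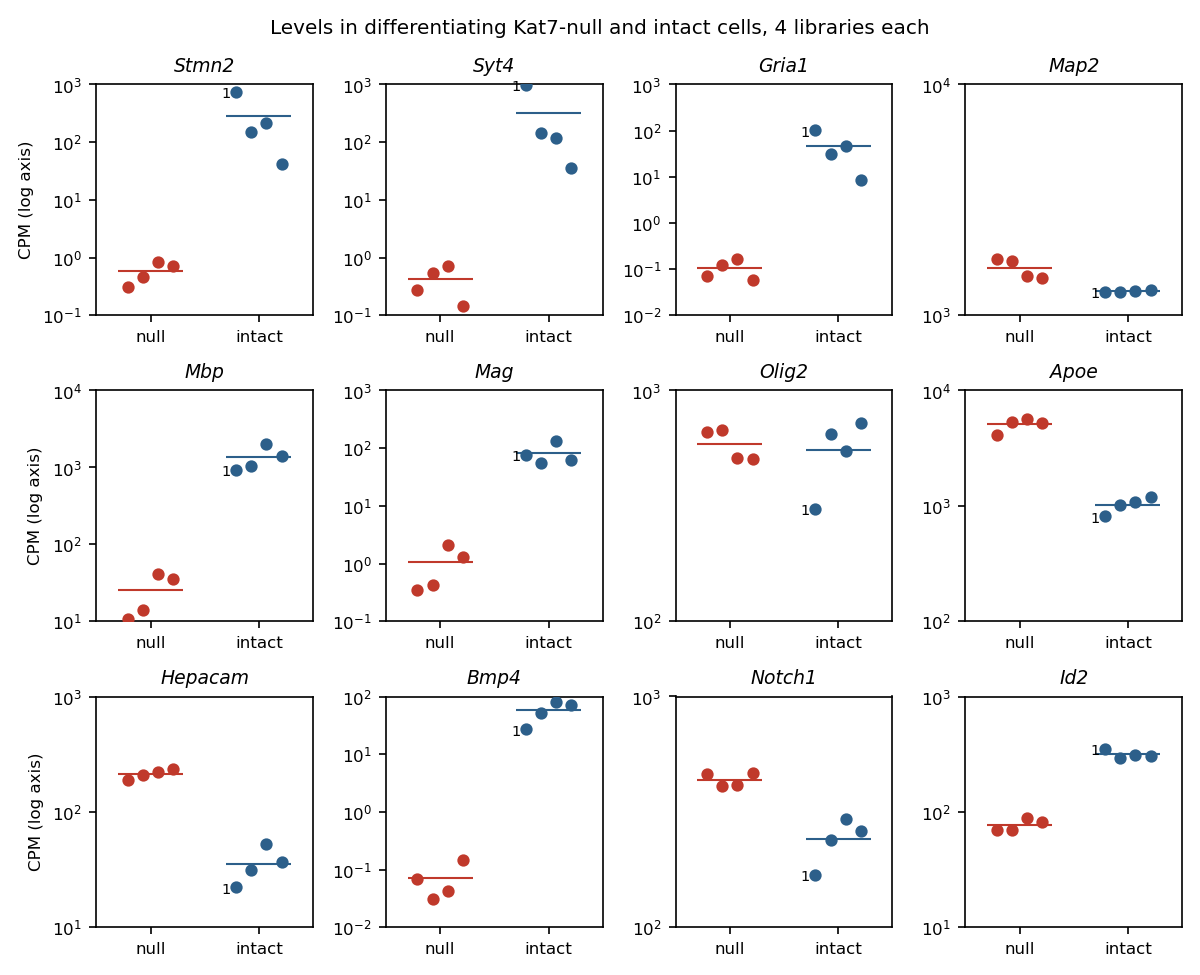
CPM (log axis) of 12 genes in the 4 null (red) and 4 intact (blue) differentiating libraries, in replicate order from left to right, with lines at group means and intact replicate 1 marked 1. Null and intact points do not overlap except for Olig2, whose null libraries (506 to 674 CPM) lie within the intact range (308 to 721 CPM).

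Synaptic genes were lower on both sides of the synapse. Of 30 presynaptic genes 21 were lower and 4 higher (20 and 4 without intact replicate 1). Syt4, a synaptotagmin of vesicle release, was at 0.279, 0.551, 0.724 and 0.145 CPM in the null libraries and 996, 146, 120 and 36.4 CPM in the intact libraries (-9.49 ± 1.28, edgeR adjusted p = 2.9e-05; -7.81 without intact replicate 1). Intact replicate 1 held most of the intact signal of Syt4, and the other 3 intact libraries remained above every null library. The vesicle protein Sv2a fell by 2.58 ± 0.22 (20.7 ± 2.67 against 124 ± 21.8 CPM) and the active zone protein Erc2 by 3.96 ± 0.41 (-3.35 without intact replicate 1). Sv2b was at 0.157% (0.0323 to 0.459%) of the intact level (0.251% without intact replicate 1 and 0.0779% without null replicate 3). Snap25, a SNARE protein, was at 11.1, 10.05, 10.3 and 9.68 CPM in the null libraries and 124, 35.4, 55.3 and 10.9 CPM in the intact libraries. It fell (-2.46 ± 0.53, edgeR adjusted p = 0.0016; -1.72 without intact replicate 1), but intact replicate 4 lay within the null range. Paralogs went the other way. Syn2, a synapsin that glial progenitors also express, was at 198, 187, 168 and 196 CPM in the null libraries and 67.7, 80.7, 76.3 and 83.9 CPM in the intact libraries, with no overlap (1.28 ± 0.12, edgeR adjusted p = 8.9e-07), and Sv2c rose (1.09 ± 0.32).

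Of 28 synaptic adhesion and scaffold genes 17 were lower and 2 higher (16 and 3 without intact replicate 1). Dlg2, a postsynaptic scaffold protein, was at 0.523, 0.337, 0.596 and 0.551 CPM in the null libraries and 216, 41.4, 57.3 and 12.6 CPM in the intact libraries (-7.32 ± 0.94, edgeR adjusted p = 1.9e-05; -6.18 without intact replicate 1). The leucine-rich adhesion gene Lrrtm4 was even across the intact libraries and fell by 5.68 ± 0.39 (0.167 ± 0.104 against 9.03 ± 0.395 CPM). Cbln4, a secreted synaptic organiser, had no null counts and was at least 185-fold lower. The scaffold gene Dlgap3 was higher instead (1.07 ± 0.19). Libraries of the genotypes did not overlap for these 4 genes.

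Receptors for the main transmitters were among the lowest genes. Of 24 glutamate receptor genes 18 were lower and 1 higher (18 and 2 without intact replicate 1; median -1.64). Gria1, an AMPA receptor subunit, was at 0.0697, 0.123, 0.1704 and 0.05799 CPM in the null libraries and 101, 31.98, 47.2 and 8.54 CPM in the intact libraries. No null library came near an intact library, and Gria1 changed by -8.68 ± 1.60 (edgeR adjusted p = 3.9e-04; -7.99 without intact replicate 1). The NMDA subunit gene Grin2b fell by 4.85 on the log2 scale (-3.67 without intact replicate 1). Of 14 GABA and glycine receptor genes 12 were lower and none higher, also without intact replicate 1 (edgeR; median -5.94 and -4.95). At an unadjusted p under 0.05, 0 were higher, and DESeq2 called 0 higher. Gabbr1, a metabotropic subunit that glia also make, was not called (266 ± 52.1 against 244 ± 49.1 CPM).

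Channel genes were more mixed. Of 25 sodium and calcium channel genes 16 were lower and 2 higher, the same counts without intact replicate 1. Scn3b, an auxiliary sodium channel subunit, was at 3.77, 6.31, 8.73 and 5.74 CPM in the null libraries and 165, 37.6, 51.6 and 14.7 CPM in the intact libraries (-3.45 ± 0.61, edgeR adjusted p = 3.1e-04; -2.49 without intact replicate 1). Cacna1e, an R-type calcium channel, fell by 5.63 (-4.70 without that library). Both higher members encode pore-forming subunits, Cacna1a (54.5 ± 5.69 against 27.9 ± 8.13 CPM, 0.97 ± 0.17) and Scn8a (83.3 ± 4.96 against 50.9 ± 13.4 CPM, 0.71 ± 0.19). Of 31 potassium channel genes 15 were lower and 9 higher (14 and 7 without intact replicate 1). The axonal channel gene Kcna1 fell by 6.99 on the log2 scale (-6.05 without intact replicate 1). Kcnj16, an inward rectifier subunit of astrocytes, was at 22.2, 36.8, 36.1 and 26.3 CPM in the null libraries and 4.78, 6.92, 3.42 and 9.02 CPM in the intact libraries, with no overlap (2.32 ± 0.30, edgeR adjusted p = 2.1e-05), and the calcium-activated channel gene Kcnn3 rose by 1.22 ± 0.22.

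Of 43 axon guidance genes 27 were lower and 7 higher (26 and 7 without intact replicate 1). Plxna4, a semaphorin receptor, was at 8.195, 6.802, 9.84 and 12.2 CPM in the null libraries and 377, 107, 92.5 and 42.9 CPM in the intact libraries (-4.06 ± 0.56, edgeR adjusted p = 3.6e-05; -3.12 without intact replicate 1). Robo1, a Slit receptor, was at 36.2, 25.3, 30.8 and 36.99 CPM in the null libraries and 288, 142, 123 and 126 CPM in the intact libraries, with the 3 lower intact libraries close together and all above the null range (-2.39 ± 0.26, edgeR adjusted p = 5.8e-06). The netrin receptor genes Dcc (-1.90 ± 0.19) and Unc5d (-6.35 ± 0.67, -5.70 without intact replicate 1) and the ephrin gene Efnb2 (-3.21 ± 0.39, -2.57) fell. The ligand of Dcc went the other way, with Ntn1 at 135 ± 4.32 against 57.6 ± 15.6 CPM (1.23 ± 0.16, edgeR adjusted p = 1.8e-05). Cxcr4, a chemokine receptor of migrating interneurons and of glial progenitors, was at 47.7, 45.5, 53.1 and 65.2 CPM in the null libraries and 15.5, 21.1, 18.8 and 24.3 CPM in the intact libraries, a rise of 1.41 ± 0.17 without overlap.

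**Figure D4:**
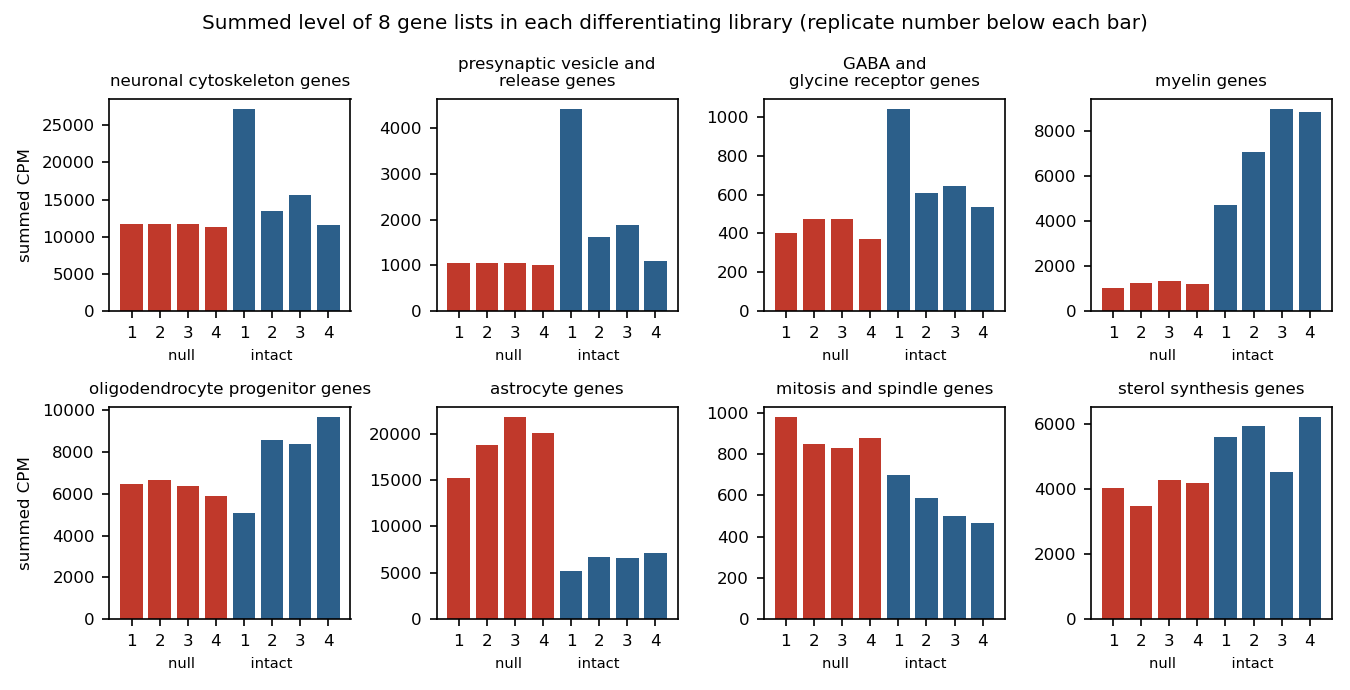
Summed CPM (y axis, from 0) of all members, tested or not, of 8 gene lists in each null (red) and intact (blue) differentiating library. Intact replicate 1 has the highest sums of the 3 neuronal lists (27186 CPM for cytoskeleton genes against 11556 to 15657 in the other intact libraries) and the lowest intact sums of myelin, oligodendrocyte progenitor and astrocyte genes. Intact replicate 4 lies close to or within the null range for cytoskeleton and presynaptic genes.

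The intact libraries differed in their neuronal and oligodendrocyte sums. Summed presynaptic levels were 4409, 1626, 1887 and 1090 CPM in intact replicates 1 to 4, and summed myelin levels 4724, 7053, 8970 and 8827 CPM. Replicate 1 had the highest presynaptic and the lowest myelin sum, and replicate 4 the lowest presynaptic sum. The null libraries were narrow for both lists, at 1006 to 1054 and 1054 to 1337 CPM. How far the make-up of the cultures moved these values was not tested.

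In the oligodendrocyte lineage, factors of the progenitor list differed among themselves and genes of myelination were lower in null cells. Of 20 oligodendrocyte progenitor genes 10 were lower and 4 higher, the same counts without intact replicate 1. Olig2, which specifies the lineage, was at 664, 674, 510 and 506 CPM in the null libraries and 308, 647, 545 and 721 CPM in the intact libraries. The groups overlapped and the difference was 0.08 ± 0.20 (edgeR adjusted p = 0.76), -0.12 without intact replicate 1 and -0.01 under library size scaling. Olig1 (0.12 ± 0.18, -0.06 without intact replicate 1) and Sox8 (0.29 ± 0.26) were not called either. Sox10, a factor of the whole lineage, was at 40.3, 43.996, 83.6 and 82.98 CPM in the null libraries and 231, 463, 524 and 589 CPM in the intact libraries. Every null library lay below every intact library, and Sox10 fell by 2.85 ± 0.47 on the log2 scale (edgeR adjusted p = 1.6e-04; -3.06 without intact replicate 1). Nkx2-2, a homeobox factor of maturing progenitors, fell as well (-1.26 ± 0.25). Enpp6, an enzyme of newly forming oligodendrocytes, fell by 3.14 ± 0.82 (30.03 ± 15.7 against 265 ± 101 CPM), and the progenitor genes Sox3 (1.16 ± 0.19) and Cspg5 (0.75 ± 0.19) rose.

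Of 26 myelin genes 22 were lower and 2 higher (22 and 1 without intact replicate 1). Mbp, myelin basic protein, was at 10.8, 14.3, 41.8 and 35.4 CPM in the null libraries and 938, 1052, 2037 and 1401 CPM in the intact libraries (-5.72 ± 1.03, edgeR adjusted p = 3.5e-04). The lowest intact library was many times above the highest null library. Myrf, the transcription factor that drives myelin genes, was at 20.3, 18.4, 36.4 and 36.7 CPM in the null libraries and 171, 297, 380 and 372 CPM in the intact libraries (-3.44 ± 0.63, edgeR adjusted p = 4.3e-04). Mag, an adhesion protein of the inner myelin wrap, was at 0.349, 0.429, 2.13 and 1.305 CPM in the null libraries and 76.2, 54.5, 136 and 63.4 CPM in the intact libraries (-6.22 ± 1.06, edgeR adjusted p = 2.1e-04; -6.86 without null replicate 3). Mbp, Cnp (-1.92 ± 0.33), Gpr17 (-2.16 ± 0.70), Bcas1 (-1.82 ± 0.46), Sirt2 (-1.48 ± 0.29) and Tubb4a (-3.20 ± 0.51) were among the 8 largest falls in CPM of all genes. Gpr17 was no longer called without null replicate 3 or null replicate 4 (edgeR adjusted p = 0.055 and 0.058). The higher members were Car2, carbonic anhydrase, at 30.97, 39.4, 31.6 and 28.6 CPM in the null libraries and 13.5, 8.93, 5.24 and 6.503 CPM in the intact libraries (1.93 ± 0.28, edgeR adjusted p = 5.7e-05) without overlap, and Aspa, at 1.55 ± 0.928 against 0.446 ± 0.165 CPM. Aspa was not called without intact replicate 1 (1.61, edgeR adjusted p = 0.051) or without null replicate 2 (1.36, 0.078).

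Astrocyte genes were higher as a group. Of 30 members 21 were higher and 1 lower with all libraries and without intact replicate 1 (median 1.41 and 1.28, against 0.04 over all genes in both fits). Apoe, the main lipid carrier of astrocytes, was at 4119, 5321, 5669 and 5253 CPM in the null libraries and 811, 1027, 1074 and 1202 CPM in the intact libraries. Every null library was far above every intact library (2.31 ± 0.68, edgeR adjusted p = 0.012). Hepacam, an adhesion protein of astrocyte junctions (chromosome 9, 37367356 to 37386572), was at 188, 210, 224 and 234 CPM in the null libraries and 22.2, 31.5, 52.5 and 36.7 CPM in the intact libraries (2.58 ± 0.33, edgeR adjusted p = 1.9e-05). Slc6a11, the astrocyte GABA transporter, was at 605, 690, 723 and 653 CPM in the null libraries and 246, 216, 146 and 165 CPM in the intact libraries (1.79 ± 0.16, edgeR adjusted p = 6.3e-07). The gap junction gene Gja1 (1.43 ± 0.20), the secreted chaperone gene Clu (1.81 ± 0.44) and Cst3 (1.44 ± 0.28) rose too. Gfap, the intermediate filament of mature or reactive astrocytes, was at 900, 1161, 1469 and 1573 CPM in the null libraries and 61.8, 273, 512 and 358 CPM in the intact libraries. No library overlapped, but Gfap varied widely in this fit and was not called (2.08 ± 1.11, edgeR adjusted p = 0.14), while a fit of the 8 differentiating libraries alone called it (2.02, edgeR adjusted p = 0.016). Aqp4, the water channel, behaved alike (1.26 ± 0.65, edgeR adjusted p = 0.13, and 0.021 in the 8 libraries alone).

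Of 25 radial glia and stem cell genes 12 were higher and 5 lower (13 and 7 without intact replicate 1). Prom1 (1.08 ± 0.27), a membrane protein of neural stem cells, and Sox9 (0.74 ± 0.15), a factor of glial competence, rose. Hopx, a marker of outer radial glia, fell (5.92 ± 3.92 against 22.2 ± 5.57 CPM, -1.90 ± 0.38). These genes of the labelled cell type were expressed in both genotypes, with summed levels of 6969 to 8652 CPM in null and 5394 to 6096 CPM in intact libraries.

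BMP signalling genes differed from ligand to target. BMPs are secreted ligands that act through SMAD proteins to induce the Id genes, and they promote astrocyte formation over oligodendrocyte formation. Of 33 BMP and TGF-beta pathway genes 16 were lower and 7 higher, the same counts without intact replicate 1. The ligand gene Bmp4 (chromosome 14, 46383525 to 46390669) was at 0.0697, 0.0306, 0.0426 and 0.145 CPM in the null libraries and 26.9, 52.8, 79.03 and 71.2 CPM in the intact libraries (-9.59 ± 1.32, edgeR adjusted p = 9.1e-05). All 4 null libraries held only a few counts, and the groups were far apart. Bmp2 had 3 null counts, 1.37% (0.281 to 4.08%) of the intact level, all in null replicate 4, without which it was at least 55.2-fold lower. Other ligand genes rose, Bmp7 (22.6 ± 8.26 against 11.1 ± 1.03 CPM, 1.03 ± 0.23) and Inhbb (72.2 ± 3.07 against 27.96 ± 1.66 CPM, 1.37 ± 0.13). Among mediators and feedback inhibitors Smad9 (-2.77 ± 0.29) and Smad7 (-1.69 ± 0.30) fell. The target Id2, an inhibitor of bHLH factors, was at 69.3, 70.3, 88.1 and 82.2 CPM in the null libraries and 353, 293, 314 and 306 CPM in the intact libraries, with narrow ranges that did not overlap (-2.03 ± 0.30, edgeR adjusted p = 6.0e-05).

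In the Notch pathway 12 of 24 genes were higher and 4 lower, again unchanged in count without intact replicate 1. Notch signals between neighbouring cells and keeps progenitors undifferentiated. The receptor gene Notch1 was at 460, 408, 412 and 467 CPM in the null libraries and 169, 239, 296 and 261 CPM in the intact libraries (0.86 ± 0.16, edgeR adjusted p = 5.7e-04). Every null library was above every intact library. The ligand genes Jag1 (1.08 ± 0.13) and Dll3 (1.27 ± 0.29) rose as well.

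WNT genes changed in both directions. Of 32 members 16 were higher and 11 lower (15 and 9 without intact replicate 1). Rnf43, a ligase that removes WNT receptors and is itself a WNT target, was at 20.9, 23.04, 10.03 and 10.03 CPM in the null libraries and 0.973, 1.79, 1.86 and 1.74 CPM in the intact libraries (3.33 ± 0.53, edgeR adjusted p = 1.3e-04), without overlap. The ligand gene Wnt5a (1.45 ± 0.28) and the receptor gene Fzd9 (1.40 ± 0.21) rose, and the secreted antagonist gene Sfrp1 fell (13.2 ± 7.25 against 105 ± 37.4 CPM, -2.98 ± 0.49). Of 12 hedgehog genes 4 were higher and 4 lower (4 and 3 without intact replicate 1). Hhip, a decoy receptor and target, was at 0.139, 0.245, 0.383 and 0.174 CPM in the null libraries and 10.5, 11.3, 13.6 and 13.5 CPM in the intact libraries (-5.62 ± 0.49, edgeR adjusted p = 6.5e-07). The intact libraries agreed closely for Hhip. The receptor gene Ptch1 (0.85 ± 0.13), the coreceptor gene Gas1 (1.38 ± 0.13) and the effector gene Gli2 (1.23 ± 0.19) rose.

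Receptor tyrosine kinase and ERK feedback genes had no common direction, with 8 higher and 12 lower of 32 (9 and 11 without intact replicate 1). Within the Sprouty inhibitors Spry2 rose (0.98 ± 0.16) and Spry4 fell (-1.48 ± 0.34). The receptor gene Fgfr1 rose (0.85 ± 0.10).

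Cell cycle genes were higher, with list medians of less than 2-fold. Of 32 DNA replication genes 23 were higher and none lower (21 and 1 without intact replicate 1), with a median of 0.43. Of 28 mitosis and spindle genes 22 were higher and 1 lower (24 and 1 without intact replicate 1), with a median of 0.49. Of 23 G1 cyclin, CDK and inhibitor genes 16 were higher and none lower (15 and 1 without intact replicate 1; edgeR). At an unadjusted p under 0.05, 2 replication genes and 0 G1 genes were lower, and DESeq2 called 2 and 0. These shares compare with 24.3% of all genes called higher. Rrm2, the ribonucleotide reductase subunit that supplies deoxynucleotides, was at 99.5, 85.8, 68.9 and 88.4 CPM in the null libraries and 47.7, 35.1, 43.998 and 30.3 CPM in the intact libraries (1.12 ± 0.16, edgeR adjusted p = 6.3e-05). Cdk6, a kinase of G1 entry, was at 11.996, 10.3, 7.37 and 9.83 CPM in the null libraries and 2.98, 2.16, 1.75 and 1.68 CPM in the intact libraries (2.20 ± 0.22, edgeR adjusted p = 2.8e-06). Neither gene overlapped between genotypes. The replicative helicase gene Cdc45 (1.02 ± 0.14), the polymerase gene Pole (1.08 ± 0.14) and the checkpoint kinase gene Bub1 (0.80 ± 0.12) rose. So did the kinesin gene Cenpe (0.66 ± 0.10) and the regulators E2f2 (1.17 ± 0.13), Cdk2 (0.73 ± 0.11) and Rb1 (0.57 ± 0.06). The mitotic cyclin gene Ccnb2 was the lower member (3.67 ± 0.653 against 6.43 ± 1.82 CPM, -0.81 ± 0.18).

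Promoter motifs were counted over all members of a list, called or not, so these counts do not depend on the genotype effect. Promoters were read from RefSeq (GRCm38.p6) as 250 bases before to 50 after the start, for genes with a single listed start, and each motif was searched on both strands over these 300 bases. The cell cycle homology region motif TTTGAA was in 17 of 23 mitosis promoters, against 18.5% of all 22862 such promoters and 11.5% of those of genes tested here. CCAAT was in 18 of 23 (38.2% of all promoters and 39.8% of those of genes tested), and the E2F motif TTTNGCGC in 7 of 22 replication promoters (1.35% of all promoters and 2.62% of those of genes tested). Among genes higher by more than 2-fold, TTTGAA was in 14.6%, CCAAT in 35.5% and TTTNGCGC in 2.14% of promoters. Whether the motifs bear on the rise was not tested. For 3 of these promoters the 250 bases before the start are shown 5′ to 3′, because the genes rose and carry the motif of their group. Capitals mark CCAAT (or ATTGG) and TTTGAA (or TTCAAA) in Top2a (chr11:99024190-99024439, minus strand) and Mki67 (chr7:135716380-135716629, minus strand), and TTTNGCGC on either strand in Mcm6 (chr1:128359706-128359955, minus strand), where overlapping matches run together. The 50 bases after the start matched GENCODE transcripts of the gene in whole or part for Top2a and Mki67. For Mcm6 they matched none on either strand, so its start and strand remain unchecked. A match is a description of letters, not of binding.
Top2a: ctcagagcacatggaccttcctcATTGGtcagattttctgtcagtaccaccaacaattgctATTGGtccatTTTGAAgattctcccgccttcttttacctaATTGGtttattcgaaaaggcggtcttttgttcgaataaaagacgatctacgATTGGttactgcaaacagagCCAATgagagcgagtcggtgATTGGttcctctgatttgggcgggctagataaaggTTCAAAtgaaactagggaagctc
Mki67: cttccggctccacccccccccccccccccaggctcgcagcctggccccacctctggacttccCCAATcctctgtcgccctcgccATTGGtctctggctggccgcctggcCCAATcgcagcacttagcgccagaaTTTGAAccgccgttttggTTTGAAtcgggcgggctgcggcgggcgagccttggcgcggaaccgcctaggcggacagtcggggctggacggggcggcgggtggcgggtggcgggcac
Mcm6: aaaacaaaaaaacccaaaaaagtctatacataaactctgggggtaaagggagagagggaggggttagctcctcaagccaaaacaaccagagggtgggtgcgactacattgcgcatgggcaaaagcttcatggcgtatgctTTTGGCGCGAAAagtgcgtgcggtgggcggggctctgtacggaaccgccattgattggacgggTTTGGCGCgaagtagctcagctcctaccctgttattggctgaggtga

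Top2a, a topoisomerase of chromosome segregation, was at 169 ± 15.8 against 89.5 ± 15.99 CPM (0.92 ± 0.11), Mki67 at 117 ± 5.19 against 54.1 ± 13.4 CPM (1.11 ± 0.16) and Mcm6, a subunit of the replicative helicase, at 81.7 ± 6.91 against 49.1 ± 4.78 CPM (0.74 ± 0.13). The printed Top2a promoter holds 6 CCAAT and 2 TTTGAA matches and that of Mki67 3 and 2.

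Among targets of p53, 15 of 30 were higher and 3 lower (16 and 4 without intact replicate 1; median 0.40). Fas, a death receptor, was at 5.89, 6.37, 13.3 and 11.9 CPM in the null libraries and 0.487, 1.82, 1.398 and 2.85 CPM in the intact libraries (2.51 ± 0.54, edgeR adjusted p = 0.0014), with no overlap. Btg2, which slows division in neurogenic progenitors, rose by 1.41 ± 0.21 (354 ± 42.7 against 133 ± 47.3 CPM). Plk3 (-1.62 ± 0.21) and Perp (-4.07 ± 0.61), other targets of p53, fell. Of 25 BCL2 family and caspase genes 8 were higher and 1 lower (11 and 1 without intact replicate 1). The pro-death gene Bcl2l11 rose (0.98 ± 0.17), and Bcl2l1, which protects cells, fell (-0.58 ± 0.15, less than 1.5-fold).

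Sterol synthesis genes fell together, by small amounts. Of 24 members 21 were lower and none higher with all libraries and without intact replicate 1 (edgeR; medians -0.53 and -0.57). At an unadjusted p under 0.05, and with DESeq2, 0 were higher. Hmgcs1, an early enzyme of the pathway, was at 1318 ± 147 against 1819 ± 325 CPM (-0.46 ± 0.12, with overlap), and Fdft1, squalene synthase, at 141 ± 16.4 against 194 ± 22.5 CPM (-0.46 ± 0.09). Neither fall passed a test against a minimum of 1.5-fold. All 14 sterol gene promoters with a single listed start, of genes called or not, held CCAAT, against 38.2% of all promoters. CCAAT was in 33.4% of promoters of genes lower by more than 2-fold and in 39.8% of those of all genes tested. The sterol response element letters TCACNCCAC were in 1 of 14, that of Hmgcs1, against 1.19% of all promoters. The promoters of Hmgcs1 (chr13:119690101-119690350, plus strand) and of Hsd17b7 (chr1:169969206-169969455, minus strand) are shown for this shared motif, with CCAAT (or ATTGG) in capitals and, in Hmgcs1, TCACNCCAC as well.
Hmgcs1: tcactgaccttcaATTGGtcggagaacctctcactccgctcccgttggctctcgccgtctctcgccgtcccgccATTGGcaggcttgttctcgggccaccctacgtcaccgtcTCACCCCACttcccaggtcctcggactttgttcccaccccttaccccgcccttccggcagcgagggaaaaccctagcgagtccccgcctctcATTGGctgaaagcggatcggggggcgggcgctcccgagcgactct
Hsd17b7: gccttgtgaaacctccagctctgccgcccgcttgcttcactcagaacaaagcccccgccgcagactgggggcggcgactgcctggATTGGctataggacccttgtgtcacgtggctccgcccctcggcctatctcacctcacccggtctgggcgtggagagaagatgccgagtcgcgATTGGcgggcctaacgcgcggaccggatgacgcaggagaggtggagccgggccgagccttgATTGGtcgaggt

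Each of these promoters holds 3 CCAAT matches in the bases shown. Hsd17b7, an enzyme of later steps of the pathway, was at 27.4 ± 2.099 against 44.8 ± 4.15 CPM (-0.71 ± 0.08, edgeR adjusted p = 8.1e-06). Fatty acid synthesis genes did not move with the sterol genes. With 6 of 20 higher and 4 lower (5 and 5 without intact replicate 1), shares were near those of all genes (24.3% and 22.0%). The majority turned under library size scaling, normalization by the median of ratios and a minimum count of 50. It also turned in a fit of the differentiating libraries alone and with DESeq2, and was lost without null replicate 3, null replicate 4 or intact replicate 3. Thrsp, a lipogenic regulator, was at 30.5, 55.5, 64.2 and 49.1 CPM in the null libraries and 3.98, 9.08, 8.35 and 10.3 CPM in the intact libraries (2.66 ± 0.35, edgeR adjusted p = 2.4e-05), without overlap. Fasn, fatty acid synthase (0.46 ± 0.09), and Me1, malic enzyme (1.04 ± 0.15), rose, and Elovl7, a fatty acid elongase, fell (11.2 ± 3.74 against 60.7 ± 17.9 CPM, -2.44 ± 0.52).

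Stress genes were divided. Of 28 integrated stress and unfolded protein response genes 6 were higher and 9 lower (8 and 8 without intact replicate 1). Asns, asparagine synthetase, was at 21.3, 19.1, 13.2 and 18.3 CPM in the null libraries and 90.6, 48.7, 40.9 and 39.2 CPM in the intact libraries (-1.61 ± 0.28, edgeR adjusted p = 2.4e-04). Xbp1, a transcription factor of the unfolded protein response (-1.13 ± 0.12), and the chaperone genes Sdf2l1 (-2.02 ± 0.23) and Hspa5 (-0.55 ± 0.14) fell as well. Slc7a11, the cystine transporter, rose by 3.09 ± 0.23 (211 ± 33.9 against 24.7 ± 7.43 CPM). Of 27 glycolysis and hypoxia genes 10 were higher and 5 lower (9 and 5 without intact replicate 1). This majority was not kept under a minimum change of 1.5-fold. Adm, a hypoxia-induced peptide, was at 7.99, 9.77, 10.7 and 16.4 CPM in the null libraries and 0.258, 0.447, 0.117 and 0.1498 CPM in the intact libraries (5.52 ± 0.39, edgeR adjusted p = 1.1e-07). Ndrg1, also hypoxia-induced, went the other way, at 0.384, 0.153, 0.277 and 0.754 CPM in the null libraries and 124, 23.6, 20.4 and 5.78 CPM in the intact libraries (-6.79 ± 0.86, edgeR adjusted p = 1.9e-05, and -5.40 without intact replicate 1). The groups were separate for both genes. The glycolytic genes Aldoa (0.72 ± 0.08) and Pfkfb3 (1.30 ± 0.19) rose.

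Of 22 interferon and antigen presentation genes 9 were higher and 4 lower (8 and 4 without intact replicate 1). Gbp2, an interferon-induced GTPase, was at 18.3, 28.9, 58.6 and 32.8 CPM in the null libraries and 0.773, 2.49, 3.42 and 3.33 CPM in the intact libraries (3.80 ± 0.59, edgeR adjusted p = 1.0e-04), with no overlap. B2m, the light chain of MHC class I, rose (78.5 ± 9.36 against 28.5 ± 7.78 CPM, 1.46 ± 0.16), whereas the heavy chain gene H2-K1 fell (5.95 ± 0.982 against 13.9 ± 2.62 CPM, -1.22 ± 0.13). The H2 genes are near-identical copies, so counts of H2-K1 are uncertain. Irf1 rose (1.43 ± 0.24) and the antiviral gene Mx2 fell (-1.68 ± 0.46).

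Matrix genes were mostly lower. Of 45 collagen, laminin and matrix genes 26 were lower and 5 higher (26 and 6 without intact replicate 1; median -1.40). Col1a1, a fibrillar collagen, was at 2.16, 0.827, 0.745 and 2.81 CPM in the null libraries and 40.6, 17.9, 9.36 and 4.05 CPM in the intact libraries (-3.47 ± 0.59, edgeR adjusted p = 2.4e-04; -2.68 without intact replicate 1). Levels in both genotypes spread widely and did not overlap. Col3a1 (-4.44 ± 0.99; -3.45 without intact replicate 1 and -5.85 without null replicate 4), the basement membrane gene Col4a2 (-3.43 ± 0.65; -2.67 without intact replicate 1) and Lama2 (-6.09 ± 0.79; -7.37 without null replicate 4) fell, and Lama5 rose (63.2 ± 14.7 against 24.4 ± 3.905 CPM, 1.38 ± 0.18). Meningeal fibroblast markers were lower beside the collagens, with a median of -3.44 (-2.58 without intact replicate 1). Of 8 tested of 14, 7 were lower (6 without intact replicate 1) and none higher (edgeR; 0 at an unadjusted p under 0.05 and 0 with DESeq2). The list shares Col1a1, Col1a2 and Col3a1 with the matrix genes. The summed level of all its 14 members, tested or not, was 258 to 407 CPM in null and 577 to 651 CPM in intact libraries. Most of it came from Pdgfra, which oligodendrocyte progenitors also express. Decorin (Dcn) was at 0.273 ± 0.383 against 3.69 ± 3.32 CPM (-3.78 ± 0.90; -2.97 without intact replicate 1 and -5.46 without null replicate 4), and Twist1, Foxc2, Crabp2, Aldh1a2, Slc6a13 and Ogn were below the count filter. Their part in the collagen result was not tested.

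Of 32 integrin and cell adhesion receptor genes 17 were lower and 9 higher (14 and 9 without intact replicate 1). L1cam, an adhesion molecule of axons, was at 0.593, 0.919, 0.809 and 0.841 CPM in the null libraries and 418, 79.1, 113 and 21.1 CPM in the intact libraries (-7.62 ± 1.03, edgeR adjusted p = 3.2e-05; -6.47 without intact replicate 1). Cntn3, a contactin, was even across intact libraries and changed by -6.88 ± 0.44 (0.229 ± 0.234 against 27.2 ± 3.88 CPM; -7.88 without null replicate 4). Cdh8 had 2 null counts, 0.127% (0.0153 to 0.458%) of the intact level, both in null replicate 4, without which it was at least 399-fold lower. Of the 14 integrin chains tested in this list 7 were higher and 4 lower (6 and 3 without intact replicate 1). Itga9, a receptor chain for tenascin, fell (0.699 ± 0.215 against 4.59 ± 1.22 CPM, -2.72 ± 0.27). Itgb5, an integrin chain that binds vitronectin, was at 152, 159, 174 and 166 CPM in the null libraries and 52.8, 55.4, 42.9 and 57.1 CPM in the intact libraries (1.64 ± 0.10, edgeR adjusted p = 3.0e-08). Cd44, the hyaluronan receptor, was at 14.9, 17.3, 29.05 and 27.8 CPM in the null libraries and 7.93, 5.58, 2.91 and 3.87 CPM in the intact libraries (2.13 ± 0.26, edgeR adjusted p = 1.5e-05), and Itga2, a collagen receptor chain, rose by 2.90 ± 0.31. Itgb5, Cd44 and Itga2 did not overlap between genotypes.

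Further marker lists covered other cell types. Of 12 endothelial markers 6 were tested, with summed levels of 1.72 to 2.58 CPM in null and 3.9998 to 5.99 CPM in intact libraries, and Kdr alone was called (-3.31 ± 0.36). Microglia and macrophage markers summed to 33.7 to 42.4 and 19.98 to 28.3 CPM, and 11 of 14 were below the filter. Red blood cell markers summed to 0.0349 to 0.153 and 0.112 to 0.2397 CPM. Smooth muscle and pericyte markers had 2 higher and 2 lower of 8, the same counts without intact replicate 1. Acta2 was among the higher ones (3.02 ± 1.705 against 0.404 ± 0.105 CPM, 2.85 ± 0.56). The other called members were Notch3, Vtn and Mcam, and the 2 lower ones were among these. Ependymal and choroid plexus markers had 3 higher and 2 lower of 10 (3 and 0 without intact replicate 1), with Foxj1 (1.39 ± 0.14), Dynlrb2 (1.60 ± 0.37) and Rarres2 (3.01 ± 0.53) higher. The choroid plexus marker Aqp1 was among the 2 lower ones. With all libraries the shares of both the smooth muscle and the ependymal list were near those of all genes (24.3% higher and 22.0% lower). Neural crest and Schwann cell markers had 4 higher and 6 lower of 11, the same counts without intact replicate 1. Sox10 and Gap43, which oligodendrocytes and neurons share, made up most of their sum. Dhh, of Schwann cells, rose from a low level (1.12 ± 0.306 against 0.207 ± 0.0279 CPM, 2.41 ± 0.26).

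Chromatin genes that were called were mostly higher. Of 20 KAT7 complex and other lysine acetyltransferase genes 8 were higher and 1, Kat7, lower, the same counts without intact replicate 1. Hat1, which acetylates new histone H4 in S phase, was at 66.2, 50.95, 46.1 and 54.2 CPM in the null libraries and 25.7, 28.2, 29.1 and 27.1 CPM in the intact libraries (0.98 ± 0.11, edgeR adjusted p = 7.2e-06). Jade2, a scaffold of the KAT7 complex, rose from a low level (6.56 ± 1.48 against 2.49 ± 0.702 CPM, 1.39 ± 0.22). Of 38 polycomb, trithorax, HDAC and DNA methylation genes 15 were higher and 1 lower (14 and 1 without intact replicate 1). Uhrf1, which maintains DNA methylation in dividing cells (0.90 ± 0.19), the polycomb gene Cbx2 (0.80 ± 0.15) and the methyltransferase gene Kmt2d (0.98 ± 0.27) were among them. Higher members made up 39.5% of this list, against 24.3% of all genes. The list median was 0.20, and the majority was not kept under a minimum change of 1.5-fold.

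Regional homeobox genes were split, with 5 higher and 9 lower of 22 (5 and 8 without intact replicate 1). Zic1, a zinc finger factor of the dorsal midline, fell (-3.25 ± 0.38). Six3, of the rostral forebrain, rose (2.23 ± 0.36). Of 18 neuropeptide and secretory granule genes 9 were lower and 1 higher (8 and 2 without intact replicate 1). Scg5, a chaperone of peptide processing, fell (8.53 ± 2.37 against 51.2 ± 15.2 CPM, -2.58 ± 0.53), and Cpe, a processing enzyme that astrocytes also secrete, was at 2224, 2731, 2941 and 2670 CPM in the null libraries and 893, 1119, 910 and 1243 CPM in the intact libraries (1.34 ± 0.25, edgeR adjusted p = 4.3e-04). Cpe was among the 8 largest rises in CPM.

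Immediate early genes had no stable majority. With all libraries 5 of 26 were higher and 6 lower, near the shares of all genes (24.3% and 22.0%). Without intact replicate 1, 12 were higher and 5 lower. Leaving out null replicate 1, intact replicate 2 or intact replicate 4 gave 6 in each direction. The differentiating libraries alone and a minimum of 1.5-fold gave 5 in each, and the replicate block gave 6 higher and 5 lower. The activity-linked gene Arc fell in both fits (-2.20 ± 0.29 and -2.09). Fos (1.43 ± 0.39 and 1.89) and Fosl1 (3.58 ± 0.48 and 3.66) rose in both, with overlap between libraries for Fos.

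The largest single rises and falls were examined among called genes whose libraries did not overlap and whose higher group averaged 2 CPM or more. Hspb1, a small heat shock protein gene, had 3 counts in the intact libraries and 1.33, 1.13, 5.52 and 4.55 CPM in the null libraries, the intact level being 0.721% (0.148 to 2.12%) of the null level (0.332% without intact replicate 4). Adm came next, and then Dbx2, a homeobox factor of the ventricular zone (chromosome 15, 95623563 to 95654771), at 58.4, 66.9, 58.2 and 62.7 CPM in the null libraries and 2.03, 0.893, 0.971 and 1.68 CPM in the intact libraries (5.43 ± 0.33, edgeR adjusted p = 2.6e-08). The null libraries were close together and far above the intact libraries. Fndc3c1 (5.13 ± 0.43) and Fnd3c2 (5.41 ± 0.54; 6.39 without intact replicate 4) are close copies on the X chromosome whose reads the counting may have divided, so each is uncertain. Sox18, a factor best known from endothelium, was at 2.93, 2.48, 2.2997 and 1.798 CPM in null and 0.258, 0, 0 and 0 CPM in intact libraries (4.96 ± 0.71, edgeR adjusted p = 4.6e-05). Its intact counts were all in replicate 1, and without that library it was at least 68.1-fold higher in null cells. Actc1, cardiac actin, was at 16.9, 18.7, 11.3 and 13.5 CPM in the null libraries and 0.401, 0.707, 0.349 and 0.899 CPM in the intact libraries (4.66 ± 0.59, edgeR adjusted p = 1.7e-05). The remaining genes of this set were Ripply1 (4.83 ± 0.71), Klf14 (4.75 ± 0.59; 5.74 without intact replicate 1), Klhdc7a (4.71 ± 0.58), Ddit4l, an inhibitor of mTOR signalling (4.56 ± 0.17), and Tafa4, a secreted peptide (4.40 ± 0.41).

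Kat7 led the falls. Sla, an adaptor protein, had 2 null counts, 0.02302% (0.00279 to 0.0832%) of the intact level, and 155, 31.8, 32.3 and 7.13 CPM in the intact libraries. Its share was 0.0626% without intact replicate 1 and 0.0149% without null replicate 2. Lin7a, a presynaptic scaffold protein, had no null counts and 25.4, 11.8, 8.82 and 7.79 CPM in intact cells, at least 665-fold lower. The glutamate receptor gene Grm7 was at least 503-fold lower, the neuronal membrane gene Vstm2b 376-fold, the neuronal GTPase gene Rit2 379-fold and the heparan sulfate enzyme gene Hs3st4 248-fold, each a lower bound. Without intact replicate 1 the bounds were 221-fold for Vstm2b and 165-fold for Rit2. Lrfn5, a synaptic adhesion gene, was at 0.0382% (0.000967 to 0.213%) of the intact level (0.117% without intact replicate 1, and at least 662-fold lower without null replicate 4, which held its 1 count). Lingo2 stood out by the evenness of its intact levels, 15.4, 11.5, 14.3 and 13.04 CPM, with 1 null count, 0.0513% (0.001299 to 0.286%) of the intact level (at least 436-fold lower without null replicate 3, which held it). Sst and Rbfox1, above, were also among the 12 lowest fold changes.

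Genes with the largest rises in CPM were Apoe, Cpe, Sparcl1, a matrix protein of astrocytes (1900 ± 371 against 387 ± 45.3 CPM), and 5 genes of the mitochondrial genome. COX1 was at 17152, 16087, 14410 and 13016 CPM in the null libraries and 9715, 10431, 7336 and 10078 CPM in the intact libraries (0.69 ± 0.16, edgeR adjusted p = 0.0021), without overlap. CYTB (0.54 ± 0.18), ND4 (0.66 ± 0.17), COX3 (0.50 ± 0.13) and COX2 (0.58 ± 0.18) rose as well, and none of these 5 rises passed a test against a minimum of 1.5-fold. CYTB was not called without null replicate 1, null replicate 2 or intact replicate 3 (0.48, 0.48 and 0.42, edgeR adjusted p = 0.062, 0.062 and 0.070), nor COX2 without intact replicate 3 (0.45, 0.050). Of 13 protein genes of this genome 9 were higher and none lower (8 and none without intact replicate 1; edgeR; 0 lower at an unadjusted p under 0.05 and 0 with DESeq2). They held 4.52 to 6.04% of the counts of null and 3.06 to 4.54% of intact libraries, which just overlap. The part of this share in other results was not tested.

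Genes that fell by more than 2-fold were longer than other genes. Genes changed by more than 2-fold in either direction had a lower ratio of observed to expected CpG in their promoters. Span from start to end in RefSeq had a median of 40.4 kb for genes lower by more than 2-fold. It was 23.3 kb for genes higher by more than 2-fold and 22.9 kb for all genes tested. Of genes spanning over 300 kb, 47.7% were lower by more than 2-fold (44.2% without intact replicate 1), against 8.80% of those under 10 kb (7.70%). The shares of genes higher by more than 2-fold were 4.75% and 6.38%. Lingo2 (chromosome 4, 35696778 to 36951744) and Gria1 (chromosome 11, 57011571 to 57330244) were among these long genes. The ratio of observed to expected CpG in the 300 promoter bases had a median of 0.654 for genes lower and 0.586 for genes higher by more than 2-fold, and 0.798 for other genes. It was known for 59.4% of tested genes. Median levels in intact cells were 7.93 CPM for genes lower and 2.67 CPM for genes higher by more than 2-fold, against 31.0 CPM for other genes. The part of level in these shares was not tested. These are descriptions over genes, which are not independent.

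**Figure D5:**
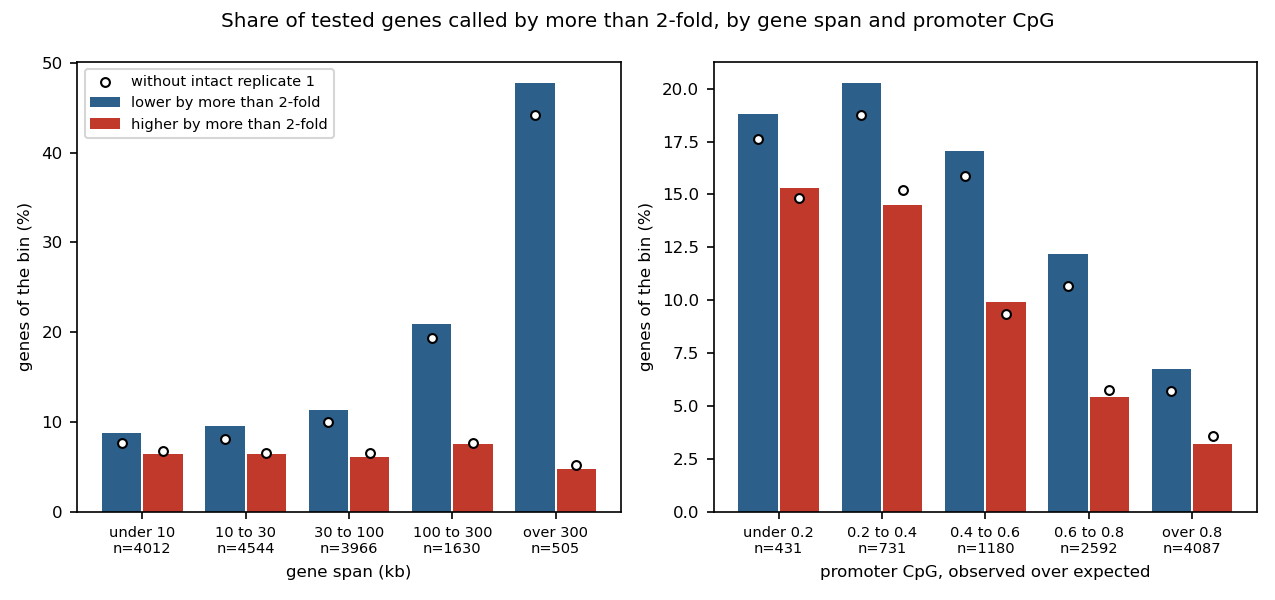
Share of tested genes called lower (blue) or higher (red) by more than 2-fold (y axis, percent), in bins of gene span in kb (left) and of promoter CpG observed over expected (right), with n genes below each bin and open circles for the values without intact replicate 1. Lower genes make up 47.7% of the genes over 300 kb, and both directions are more frequent in promoters with little CpG.

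The same fit tested whether the genotype effect differed from that in proliferating neurospheres. The difference was called for 3442 genes (22.7%), 1935 with a more positive (12.7%) and 1507 with a more negative effect in differentiating cells (9.93%). Without intact differentiating replicate 1 it was called for 3669 genes, and without intact replicate 1 of both conditions for 4594. In intact proliferating cells the median SD over replicates was 0.170 log2 units, and 0.0832 without replicate 1. List counts in this paragraph are with all libraries only. Of genes higher in differentiating null cells 1486 were also higher in proliferating null cells (40.3% of the first list and 51.6% of the second), and of those lower 1497 were (44.8% and 50.2%). In opposite directions were 239 and 193 genes. The difference was positive for 25 of 28 mitosis genes, 20 of 32 replication genes and 13 of 23 G1 genes, and negative for none of them (edgeR; 0 at an unadjusted p under 0.05 and 0 with DESeq2). In proliferating cells, where 19.0% of all genes were higher and 19.7% lower, 15 of the mitosis genes were lower and none higher (edgeR, 0 at an unadjusted p under 0.05 and 0 with DESeq2). For 15 of 24 sterol genes it was negative and for none positive (edgeR, 0 at an unadjusted p under 0.05 and 0 with DESeq2), and for 15 of 43 axon guidance genes negative and for 6 positive. Among stress response genes it was negative for 10 of 28, and 14 of the 28 were higher in proliferating null cells. For myelin genes it was positive for 2 and negative for 3 of 26, and 15 of them were lower in proliferating null cells too. Whether such counts differ between lists was not tested.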

How the data were processed

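RNA-seq counts per gene of 16 libraries were used, 1 deposited file each. The authors' deposited values are whole-number read counts per Entrez gene, not normalized. Per the submitters' processing notes, bcl2fastq, featureCounts and mm10 were used, and they name no version, annotation, aligner or strand setting, so genes and antisense partners may share reads. A combined table of 16 columns was not used. Of 27179 genes, 25275 matched a RefSeq symbol.

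Groups came from the labels, with 4 libraries each. In R 4.3.3, edgeR 4.0.16 kept 15177 genes (filterByExpr, minimum count 10), scaled by TMM and fitted 1 quasi-likelihood model with 1 mean per group over all 16 libraries. Calls were at a Benjamini-Hochberg adjusted p under 0.05. SEs come from the test statistic and the fold change fitted without a prior count. Printed fold changes include edgeR's prior count, so the SEs are approximate where counts are few. Genes with 0 counts in a group are bounded by 3 counts over the group, and those with 1 to 3 counts have an exact 95% interval, both for counting error only. Fits were tested on simulated counts.

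Named genes are Kat7, the 12 highest and 12 lowest fold changes among called genes whose libraries did not overlap and whose higher group averaged 2 CPM or more, the 8 largest rises and falls in mean CPM, and list members with their values. Pseudogenes, predicted genes and Y-linked genes were not named, nor Xist, and some other genes that this rule names are not reported here. Members, lists and tests were chosen with earlier results of these data known. Alternatives were other scalings, a minimum count of 50, no filter, the differentiating libraries alone, a replicate block, a 1.5-fold minimum, each library left out, and DESeq2 1.42.0.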

Additional observations from a re-analysis of the deposited data

Results flagged for a closer look

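In 9 of 115 groups of 4 libraries tested for genes whose levels are given, 1 library lay further from the others than Dixon's 95% limit allows, and chance alone marks about 1 in 20 groups. In 7 of the 9 the library was intact replicate 1. Its level was 481.7 CPM for Mef2c, 996.2 CPM for Syt4, 288 CPM for Robo1, 124.2 CPM for Ndrg1 and 155.5 CPM for Sla, each above the other 3 intact libraries. It was below them for Rnf43, at 0.9731 CPM. For Sox18 it was the only intact library with counts, at 0.2576 CPM. In null cells replicate 2 had the only Kat7 count (0.03064 CPM) and replicate 3 the only Lingo2 count (0.02129 CPM). A group with counts in 1 library only, as for Sox18, Kat7 and Lingo2, exceeds the limit whatever its level. These marks therefore cannot be set against the 1 in 20.

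For 24 genes with levels given, the genotype effect differed between differentiating and proliferating cells in edgeR's interaction test, with adjusted p from 3.2e-05 to 0.027. The log2 effect in differentiating minus that in proliferating cells was positive for Adm (3.85), Actc1 (4.97), Gbp2 (3.56), Dbx2 (2.56), Cd44 (2.04), Kcnj16 (1.95), Itgb5 (1.33), Slc6a11 (1.25), Cdk6 (1.17), Hat1 (0.89), Rrm2 (0.81) and Syn2 (0.60). For Sox18 it was 6.35, a fitted value that rests on the counts of 1 intact library. For Robo1 it was 1.42, and the gene was lower in null cells of both conditions (-2.39 in differentiating and -3.81 in proliferating cells). It was negative for Gria1 (-10.16), Col1a1 (-4.48), Mef2c (-3.92), Celf5 (-3.59), Scn3b (-2.82), Snap25 (-2.61), Plxna4 (-2.49), Hhip (-2.37), Map1b (-2.15) and Asns (-1.64). Col1a1 had an effect of 1.01 in proliferating cells, which neither edgeR nor DESeq2 called, and of -3.47 in differentiating cells. Gria1 had effects of 1.47 and -8.68, and the SE of its difference was 1.99.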

How the results depend on the processing

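With all libraries 3691 genes were higher and 3345 lower. A test against a minimum change of 1.5-fold gave 958 higher and 1683 lower genes, and 766 for the difference between conditions (3442 otherwise). Leaving out each of the 8 libraries in turn gave 3189 to 3578 higher and 2934 to 3317 lower genes, 912 to 1008 and 1643 to 1971 by more than 2-fold, and 2879 to 3669 for the difference. Kat7 ranged from -14.49 to -12.74. Normalization by the median of ratios gave 3116 higher and 3715 lower genes, DESeq2 3306 and 3863, and the 8 differentiating libraries alone 3073 and 3628, and a minimum count of 50 gave 2822 and 3247. Lower calls were the larger share in these 4 fits, unlike the first. Without intact replicate 1 of both conditions 4065 were higher, 3494 lower and 4594 differed between conditions. Olig2, not called, was -0.0107 under library size scaling, -0.115 without intact replicate 1 of both conditions, and -0.115 to 0.236 with each library left out. Olig1, not called, was -0.0603 without these 2 libraries and -0.0603 to 0.2497 with each left out. The replicate number was not given as a pairing: same-numbered null and intact libraries had residual correlations of 0.0631, 0.0365, 0.0153 and -0.00697, and not every library correlated best with its own number. With the replicate block 3560 genes were higher and 3183 lower (2672 and 3123 in the differentiating libraries alone), and 3151 for the difference. With the block in the differentiating libraries alone Map2, Hmgcs1, Fos and CYTB were not called.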
